A study of Mus musculus with 6 samples.

Results

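The genes described here encode the synaptic vesicle and exocytosis machinery, and they were examined in mGB2, a mouse glioblastoma line, with and without a knockout of Bcat1. They were taken by name from the deposited gene tables: the families named Syt, Rims, Stx, Vamp, Stxbp, Cplx, Unc13, Rab3 and Snap, the synapsins Syn1 to Syn3, Syp, the SV2 proteins, Bsn, Pclo, Erc1 and Erc2. The name rule used no measured value and found 81 genes of the 49585 listed, and all 81 are annotated as protein coding. It also took 6 genes that belong to other machinery and only share the letters Snap. These are Snapc1 to Snapc5, which encode the complex that starts transcription of small nuclear RNA genes, and Snap91, which encodes the clathrin assembly protein AP180.

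In regulated exocytosis a vesicle is brought to the plasma membrane by Rab3 and the scaffold proteins of the active zone, primed by Munc13 and Munc18 proteins, and fused when a vesicle SNARE zips up with SNAREs of the target membrane. Synaptotagmins sense the calcium that triggers the last step, and complexins hold and help the partly zipped SNARE bundle. The pathway is best known from nerve terminals and endocrine cells, but many of its SNAREs work in every cell, in traffic between the Golgi, endosomes and the cell surface.

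RNA was measured in 3 libraries from Bcat1-KO cells and 3 from control cells, all untreated, of a line that the labels call glioblastoma stem cells. Cells of both groups grew attached to coated plates in serum-free medium with EGF and FGF and were taken at confluency. The labels give neither how the knockout was made nor whether it is 1 clone, and they name no separate cultures for the replicates, so that p-values reflect only how far these samples spread, which may be technical. The libraries held 29543157 to 37800648 strand-matched gene counts, so that 3 counts stand for 0.0794 to 0.102 CPM (reads of a gene scaled to a common library size, by the TMM method) in a library. Bcat1, which encodes the cytosolic branched-chain aminotransferase, read 155, 176 and 173 CPM in Bcat1-KO cells and 214, 223 and 232 CPM in control cells. Its transcript was thus lower in every library labelled Bcat1-KO but not gone (log2 fold change -0.41, SE 0.07, Benjamini-Hochberg adjusted p = 0.000355 by the quasi-likelihood test of edgeR, which gives all p-values below unless another tool is named). Of the glioblastoma stem cell markers, Sox2, Olig2 and Nes were present in both groups, and Fut4 had 0 counts.

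Enough reads for a test were found for 56 of the 81 genes. At an adjusted p under 0.05, 22 were higher and 18 lower in Bcat1-KO cells, which makes 40 of 56 (71.4%), where 62.3% of all 14020 genes tested passed. Over all genes 32.0% passed as higher and 30.3% as lower. The knockout and control libraries did not overlap for 43 of the 56 (67.7% of all genes). The median log2 fold change of the 56 genes was 0.05, against 0.01 over all genes, and the median size of the change without its sign was 0.34 against 0.38. The group thus moved in both directions, by about as much as other genes did. Without the 6 genes taken by their letters alone, 19 were higher and 16 lower of 50 tested. A change of at least 2-fold that passed the test was found for 15 of the 56 (19.2% of all genes), 10 higher and 5 lower.

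**Figure D1:**
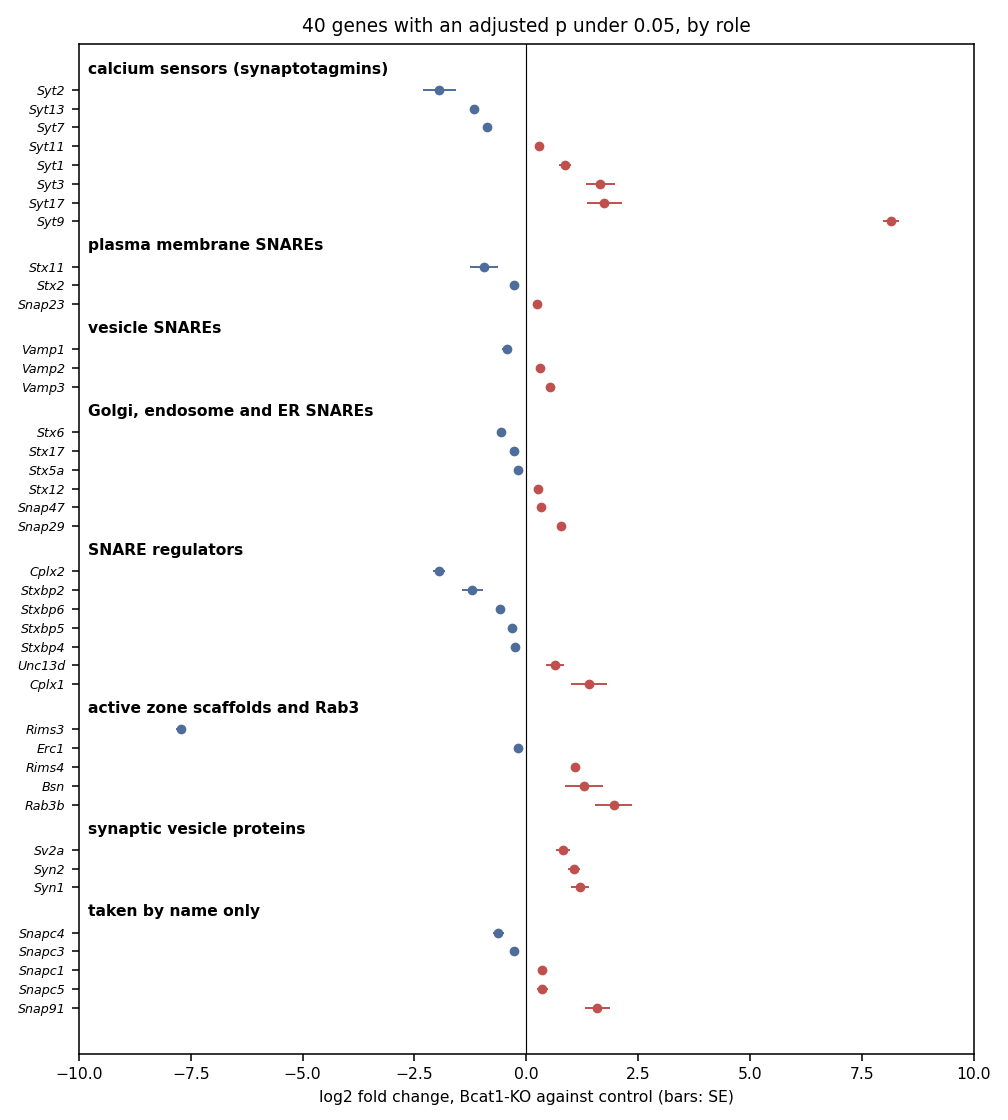
Log2 fold change of Bcat1-KO against control for the 40 genes that passed an adjusted p of 0.05, by role (horizontal axis: log2 fold change, bars: SE, 3 libraries a group). Red points lie above 0 and blue points below. Syt9 at 8.15 and Rims3 at -7.71 lie far from the rest, which lie between -1.95 and 1.95.

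By role, changes of 2-fold or more were found in 5 of 8 tested synaptotagmins, 4 of 7 active zone and Rab3 genes, 3 of 11 SNARE regulators, 2 of 4 vesicle proteins and in none of the 20 tested SNAREs. Over all genes 19.2% had such a change. The difference between roles was not tested. In a test against a 1.5-fold change, 15 of the 56 genes passed (21.7% of all genes). These were Syt9, Syt1, Syt3, Syt17, Rims4, Rab3b, Syn1, Syn2 and Snap91 as higher, and Rims3, Cplx2, Syt13, Syt7, Stxbp2 and Syt2 as lower.

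The promoter windows of 4 genes are shown because these carry the largest change in either direction (Syt9 and Rims3) or rose together as vesicle-tethering synapsins (Syn1 and Syn2). Each runs from 250 bases before to 50 after the start given by RefSeq (GRCm38.p6, which has the coordinates of mm10), 5′ to 3′ on the gene's strand. Capitals mark matches on either strand to the GC box GGGCGG, the cAMP response element TGACGTCA, and TTCAGCACC, the left part of the RE1 element that the neuronal gene repressor REST binds. The windows are Syt9 at chr7:107370540-107370839 (plus strand), Rims3 at chr4:120854549-120854848 (plus), Syn1 at chrX:20920869-20921168 (minus) and Syn2 at chr6:115134652-115134951 (plus).
Syt9: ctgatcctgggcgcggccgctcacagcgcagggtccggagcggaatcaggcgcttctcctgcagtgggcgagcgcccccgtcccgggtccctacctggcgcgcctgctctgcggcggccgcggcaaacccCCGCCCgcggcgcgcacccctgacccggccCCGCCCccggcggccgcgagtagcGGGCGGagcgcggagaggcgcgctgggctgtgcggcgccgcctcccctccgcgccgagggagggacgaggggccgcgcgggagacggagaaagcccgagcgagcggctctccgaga
Rims3: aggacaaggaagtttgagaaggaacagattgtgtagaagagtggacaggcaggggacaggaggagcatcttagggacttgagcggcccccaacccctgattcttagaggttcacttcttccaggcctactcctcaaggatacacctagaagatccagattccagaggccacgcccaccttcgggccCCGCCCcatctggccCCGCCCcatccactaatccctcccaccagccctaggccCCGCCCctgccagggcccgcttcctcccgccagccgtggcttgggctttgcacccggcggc
Syn1: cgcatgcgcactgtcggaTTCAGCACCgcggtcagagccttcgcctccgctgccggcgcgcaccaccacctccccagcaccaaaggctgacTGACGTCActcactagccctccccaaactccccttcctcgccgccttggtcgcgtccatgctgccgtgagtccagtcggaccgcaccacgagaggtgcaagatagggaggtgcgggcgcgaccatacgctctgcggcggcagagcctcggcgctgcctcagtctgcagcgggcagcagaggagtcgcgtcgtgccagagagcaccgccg
Syn2: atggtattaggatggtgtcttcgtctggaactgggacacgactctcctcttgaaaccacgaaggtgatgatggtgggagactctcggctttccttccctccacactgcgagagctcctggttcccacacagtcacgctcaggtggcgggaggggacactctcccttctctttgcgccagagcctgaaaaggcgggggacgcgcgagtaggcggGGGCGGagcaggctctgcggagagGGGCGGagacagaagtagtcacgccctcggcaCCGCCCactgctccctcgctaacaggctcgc

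The Syt9 window is a dense CpG island, with 49 CpG pairs and 79.3% G and C, where the median window of 32851 in the RefSeq table has 7 CpG pairs and 52.7%. Rims3 has 11 CpG pairs, Syn2 has 21 and Syn1 has 33. The GC box occurs 3 times each in the Syt9, Rims3 and Syn2 windows and not in that of Syn1, and 35.7% of all windows hold it. The synapsin gene Syn1 holds the left part of the RE1 element, found in 0.371% of all windows, and the cAMP response element, found in 1.79%. RefSeq windows matched 65 of the 81 genes, with 81 entries. Of these entries, 55 (67.9%) held the GC box, and 2 held the left part of the RE1 element, those of Syn1 and Unc13a. The Unc13a window also held the right part of the RE1 element, which occurs in 0.137% of all windows. The TATA box TATAAA was found in 5 entries (13.6% of all windows) and the E-box CAGCTG in 22 (16.3%); both were searched on either strand, and no entry among the 4 shown holds them. A match describes the letters only, and a link between motifs and changes was not tested. The GC box is held by Syt9, which rose, and by Rims3, which fell.

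Synaptotagmins are vesicle proteins whose paired C2 domains bind membranes, in several members in a calcium-dependent way. All 8 tested members passed the test, 5 higher and 3 lower, where 62.3% of all genes passed. Syt9 (ENSMUSG00000062542.11, chr7:107370728-107548656, plus strand, mm10), a fast calcium sensor of dense core and some synaptic vesicles, stood at 26.2, 29.2 and 29.3 CPM in the knockout libraries and at 0.0954, 0.0904 and 0.103 CPM in the control libraries. The control values are 3 reads in each library. Syt9 was thus close to silent in every control library and well expressed in every knockout library, with no overlap. The knockout libraries held 3136 Syt9 reads and the control libraries 9, a ratio of 294 after scaling (exact 95% interval 155 to 644, for counting error only). Its fitted log2 fold change was 8.15 (SE 0.18, edgeR adjusted p = 9.30e-12), the 19th highest of the 14020 genes tested.

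Syt1, the main calcium sensor of fast transmitter release, read 29.1, 20.2 and 20.002 CPM in Bcat1-KO cells and 13.2, 12.9 and 12.1 CPM in control cells. It rose by 0.86 on the log2 scale (SE 0.14, edgeR adjusted p = 0.000219), and by 0.64 without knockout replicate 1, its highest library. Syt2, the fast sensor of brainstem and spinal synapses, went the other way at a low level. It read 0.277, 0.130 and 0.330 CPM in Bcat1-KO cells and 1.30, 0.783 and 0.757 CPM in control cells (log2 fold change -1.94, SE 0.37, edgeR adjusted p = 0.000758).

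Syt13 (chr2:92915098-92956058), an atypical synaptotagmin that lacks the calcium-binding residues, was lower in Bcat1-KO cells. Its level was 108, 124 and 135 CPM in Bcat1-KO cells and 265, 276 and 283 CPM in control cells. The groups were far apart, and the log2 fold change was -1.17 (SE 0.08, edgeR adjusted p = 2.04e-07). Syt7, a slow sensor of high calcium affinity that also acts in lysosome exocytosis, read 53.9, 46.3 and 54.1 CPM in Bcat1-KO cells and 93.0, 93.2 and 95.8 CPM in control cells. It fell by 0.87 on the log2 scale (SE 0.07, edgeR adjusted p = 8.83e-07).

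Syt11, another member that does not bind calcium, read 134, 136 and 148 CPM in Bcat1-KO cells and 111, 112 and 122 CPM in control cells. This small rise was 0.28 on the log2 scale (SE 0.07, edgeR adjusted p = 0.00415), and 0.69 relative to the local median. The local median is that of 51 tested genes in chromosome order, the gene itself included, with fewer genes at chromosome ends. Values relative to neighbours below use the same median. Adjusted p-values given for such values leave out the error of the median. Syt17, a member found at the Golgi, read 2.13, 0.728 and 1.27 CPM in Bcat1-KO cells against 0.477, 0.362 and 0.379 CPM in control cells, a rise of 1.75 on the log2 scale (SE 0.40, edgeR adjusted p = 0.00246). Syt3 stood at 0.613 ± 0.0178 CPM in Bcat1-KO cells and 0.194 ± 0.0424 CPM in control cells (mean ± SD, n = 3 each), a rise of 1.65 (SE 0.32, edgeR adjusted p = 0.000840).

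**Figure D2:**
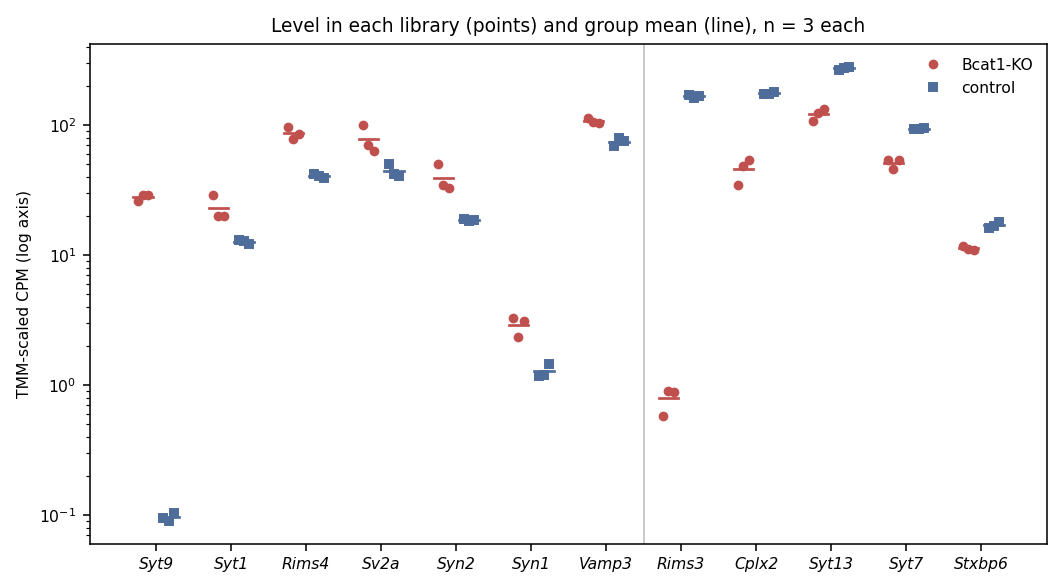
Level of 12 genes in each library (vertical log axis: TMM-scaled CPM; red circles: 3 Bcat1-KO, blue squares: 3 control, short lines: group means). Genes higher in Bcat1-KO cells stand on the left and lower ones on the right, and no gene shown has overlapping groups. Knockout replicate 1 is the highest library for Sv2a at 101 CPM, Syn2 at 50.1 CPM and Syt1 at 29.1 CPM.

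Set on a scale per length (CPM per kb of exon), the 17 synaptotagmins together came to 77.0 ± 4.81 in Bcat1-KO cells and 111 ± 3.56 in control cells (mean ± SD, n = 3 each). Syt13 made up 66.1% ± 0.437 of that sum in control cells and 42.1% ± 2.38 in Bcat1-KO cells, while Syt11 went from 19.97% ± 0.513 to 34.7% ± 0.479. Syt9 took 0.0219% of the control sum and 9.22% ± 0.396 of the knockout sum, below Syt13 and Syt11 in every knockout library and near Syt7 at 9.61% ± 0.950. Among the fast calcium sensors, Syt1, Syt2 and Syt9 summed to 9.90 ± 0.185 CPM per kb in Bcat1-KO cells and 1.67 ± 0.0998 in control cells. Syt1 held 91.2% ± 1.88 of that sum in control cells, and Syt9 held 71.8% ± 5.76 in Bcat1-KO cells. Per length, the leading fast sensor transcript was therefore Syt1 in every control library and Syt9 in every knockout library. In CPM, without regard to length, Syt1 (29.1) lay above Syt9 (26.2) in knockout replicate 1 and below it in knockout replicates 2 and 3.

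**Figure D3:**
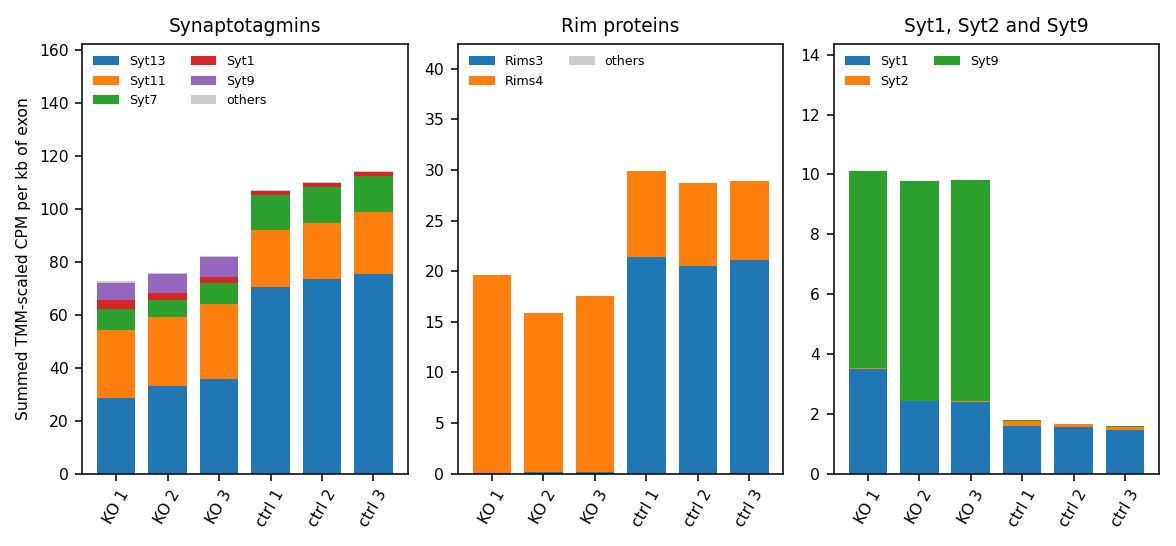
Summed TMM-scaled CPM per kb of exon in each of the 6 libraries for the 17 synaptotagmins, the 4 Rim genes and the fast sensors Syt1, Syt2 and Syt9, with each gene's part in colour (linear axes that start at 0). Rims3 fills 71.9% of the Rim sum in control cells and 0.573% in Bcat1-KO cells, where Rims4 fills 99.3%.

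Rim proteins sit at the active zone; the long forms of Rims1 and Rims2 link Rab3 on the vesicle to Munc13 and calcium channels, while Rims3 and Rims4 encode short forms that keep only the last C2 domain. Rims3 (ENSMUSG00000032890.17, chr4:120854816-120896579, plus strand) read 0.582, 0.910 and 0.880 CPM in Bcat1-KO cells and 170, 163 and 168 CPM in control cells. It was thus nearly lost from every knockout library. The knockout libraries held 88 reads and the control libraries 15657, a ratio of 211 (exact 95% interval 171 to 263, for counting error only). The log2 fold change was -7.71 (SE 0.11, edgeR adjusted p = 1.95e-12), the 36th lowest of all genes tested. In RNA from a whole culture, fewer cells with a transcript and less of it per cell cannot be told apart.

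Rims4 (chr2:163859751-163918683) moved the opposite way, with 97.1, 78.2 and 86.4 CPM in Bcat1-KO cells and 42.3, 41.0 and 39.0 CPM in control cells. Every knockout library lay above every control library, and the rise was 1.10 on the log2 scale (SE 0.08, edgeR adjusted p = 3.53e-07). Per length, the 4 Rim genes summed to 17.7 ± 1.88 CPM per kb in Bcat1-KO cells and 29.2 ± 0.617 in control cells. Of that sum Rims3 held 71.9% ± 0.868 in control cells and 0.573% ± 0.180 in Bcat1-KO cells, and Rims4 held 28.1% ± 0.858 and 99.3% ± 0.229. The long-form genes hardly took part: Rims1 had 11 reads in Bcat1-KO cells and 1 in control cells over 3 libraries each, and Rims2 had 1 and 1.

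Among the other scaffold and Rab3 genes, the giant active zone organisers were near the limit of detection. Bsn (Bassoon) read 1.05, 0.442 and 0.578 CPM in Bcat1-KO cells and 0.191, 0.241 and 0.413 CPM in control cells, a rise of 1.29 (SE 0.42, edgeR adjusted p = 0.0190). That call was lost without knockout replicate 1 (0.84, adjusted p = 0.0752), without control replicate 1 (adjusted p = 0.0906), without control replicate 2 (adjusted p = 0.0709) and in limma-trend (adjusted p = 0.198). Pclo (Piccolo) had 3 reads in Bcat1-KO cells and 1 in control cells. Rab3b rose by 1.95 (SE 0.42, edgeR adjusted p = 0.00168) from 0.128 ± 0.0546 to 0.508 ± 0.128 CPM (n = 3 each). Rab3a, the main Rab3 of synaptic vesicles, stood at 22.3 ± 2.80 CPM in Bcat1-KO cells and 21.6 ± 0.760 CPM in control cells and did not pass the test (0.04, edgeR adjusted p = 0.735). The local median around Rab3a was -0.41, so that Rab3a stood at 0.45 relative to it (edgeR adjusted p = 0.00219). Rab3d did not pass either (0.17, edgeR adjusted p = 0.371). Erc1, an ELKS scaffold also used outside neurons, fell by 0.20 (SE 0.07, edgeR adjusted p = 0.0297), a call lost without knockout replicate 2 (adjusted p = 0.0775), without control replicate 3 (adjusted p = 0.127) and in limma-trend (adjusted p = 0.206). Relative to the local median Erc1 stood at -0.30 (edgeR adjusted p = 0.00314).

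Of the 7 membrane and associated proteins of synaptic vesicles, 4 could be tested. Sv2a, Syn2 and Syn1 passed as higher, where 32.0% of all genes did, and Syp did not pass. Sv2a, the vesicle glycoprotein that binds the antiepileptic levetiracetam, read 101, 70.4 and 63.3 CPM in Bcat1-KO cells and 50.5, 41.8 and 40.8 CPM in control cells. The groups did not overlap, and the rise was 0.82 (SE 0.15, edgeR adjusted p = 0.000540), or 0.57 without knockout replicate 1. Syn2, a synapsin that tethers vesicles to each other and to the cytoskeleton, read 50.1, 34.6 and 33.1 CPM in Bcat1-KO cells and 19.1, 18.5 and 18.8 CPM in control cells. It rose by 1.06 (SE 0.14, edgeR adjusted p = 3.75e-05), or 0.83 without knockout replicate 1. Syn1 was much lower, at 3.30, 2.34 and 3.11 CPM in Bcat1-KO cells and 1.18, 1.21 and 1.45 CPM in control cells, and rose by 1.19 (SE 0.20, edgeR adjusted p = 0.000301). Syp (synaptophysin), among the most abundant proteins of synaptic vesicles in neurons, stood at 0.748, 0.702 and 0.413 CPM in Bcat1-KO cells and 0.541, 0.603 and 0.447 CPM in control cells. The Syp groups overlapped, and its value of 0.22 did not pass (edgeR adjusted p = 0.549).

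Of 11 tested SNARE regulators, 5 were lower and 2 higher, where 30.3% and 32.0% of all genes were. Cplx2 (complexin 2, chr13:54371349-54383917), which binds the assembled SNARE bundle, read 34.5, 48.3 and 54.4 CPM in Bcat1-KO cells and 174, 175 and 182 CPM in control cells. It fell by 1.95 on the log2 scale (SE 0.13, edgeR adjusted p = 1.11e-07), with the groups far apart. Per length, the complexins summed to 9.45 ± 2.09 CPM per kb in Bcat1-KO cells and 36.0 ± 0.824 in control cells, of which Cplx2 was 98.2% and 99.8%. Cplx1, the complexin of many central synapses, was at 0.305, 0.442 and 0.358 CPM in Bcat1-KO cells and 0.127, 0.181 and 0.103 CPM in control cells. Its rise of 1.39 (SE 0.40, edgeR adjusted p = 0.0101) did not pass in DESeq2 (adjusted p = 0.0939).

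Stxbp6 (amisyn), whose SNARE-like domain can occupy syntaxin in place of a vesicle SNARE, read 11.7, 11.2 and 10.98 CPM in Bcat1-KO cells and 16.3, 16.8 and 18.1 CPM in control cells. It fell by 0.59 (SE 0.09, edgeR adjusted p = 0.000176), and by 0.98 relative to the local median. Stxbp5 (tomosyn), which acts in a like way, fell by 0.31 (SE 0.10, edgeR adjusted p = 0.0148), a call lost without knockout replicate 3 (adjusted p = 0.0584), without control replicate 1 (adjusted p = 0.0629) and in limma-trend (adjusted p = 0.0794). Stxbp4, a partner of syntaxin 4, fell by 0.26 (SE 0.07, edgeR adjusted p = 0.00534), a call lost in limma-trend (adjusted p = 0.0677). The priming factors Unc13a and Unc13b did not pass, at -0.29 and 0.27 (edgeR adjusted p = 0.109 and 0.203). Unc13a passed with no filter on low counts (adjusted p = 0.0493) and without knockout replicate 2 (adjusted p = 0.0488). Unc13b stood at 0.62 relative to a local median of -0.35 (edgeR adjusted p = 0.0109).

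The members Stxbp2, Stx11 and Unc13d, known from lytic granule release in lymphocytes, were present at about 1 CPM. In the main test they did not all move one way. Stxbp2 (Munc18-2) read 0.886, 0.832 and 0.578 CPM in Bcat1-KO cells and 1.91, 1.90 and 1.51 CPM in control cells, and fell by 1.21 (SE 0.23, edgeR adjusted p = 0.000747). Stx11, the syntaxin it binds there, fell by 0.94 (SE 0.32, edgeR adjusted p = 0.0226). That call was lost without knockout replicate 2 (adjusted p = 0.0763), without control replicate 1 (adjusted p = 0.0974) and without control replicate 3 (adjusted p = 0.0591). Unc13d (Munc13-4) rose by 0.64 (SE 0.20, edgeR adjusted p = 0.0159), a call lost in DESeq2 (adjusted p = 0.0809), without knockout replicate 2 (adjusted p = 0.0546), without control replicate 1 (adjusted p = 0.0553) and without control replicate 2 (adjusted p = 0.0639).

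Of the 6 tested plasma membrane SNAREs, 1 was higher and 2 were lower (50% together, where 62.3% of all genes passed). Stx1a, a syntaxin of nerve terminals, read 8.42, 9.51 and 7.95 CPM in Bcat1-KO cells and 9.86, 8.35 and 8.67 CPM in control cells. The groups overlapped, and it did not pass the test (-0.05, edgeR adjusted p = 0.716). Stx4a, a syntaxin of general surface traffic and the most abundant plasma membrane syntaxin per length, did not pass (-0.15, edgeR adjusted p = 0.0881). Its level per length was 21.1 CPM per kb in Bcat1-KO cells and 23.3 in control cells. Stx2 fell by 0.28 (SE 0.07, edgeR adjusted p = 0.00266), from 44.2 ± 1.52 to 36.3 ± 0.826 CPM. Snap23, the broadly used relative of Snap25, read 31.5, 35.9 and 34.4 CPM in Bcat1-KO cells and 28.0, 29.9 and 28.5 CPM in control cells. Its rise of 0.24 (SE 0.08, edgeR adjusted p = 0.0171) was lost when any of knockout replicates 2 and 3 and control replicates 1 and 3 was left out (adjusted p of 0.0536 to 0.0779), and relative to its neighbours (adjusted p = 0.110). Snap25, the SNARE of neuronal exocytosis, had 14 reads over the knockout libraries and 3 over the control libraries. Snap25 made up 0.0432% of the summed SNAP-25 family per length in Bcat1-KO cells and 0.0151% in control cells.

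Of the vesicle SNAREs, 2 were higher and 1 was lower of 4 tested (75% together, where 62.3% of all genes passed). Vamp2 (synaptobrevin 2), the main SNARE of synaptic vesicles, read 80.9, 95.8 and 86.6 CPM in Bcat1-KO cells and 75.7, 71.1 and 67.0 CPM in control cells, a rise of 0.30 (SE 0.08, edgeR adjusted p = 0.00519). Vamp1 (synaptobrevin 1) read 29.4, 39.8 and 34.0 CPM in Bcat1-KO cells and 50.02, 44.6 and 44.8 CPM in control cells, and fell by 0.43 (SE 0.10, edgeR adjusted p = 0.00301). Neither pair of groups overlapped. Vamp3 (cellubrevin), of recycling endosomes, was the most abundant vesicle SNARE per length, at 37.2 CPM per kb in Bcat1-KO cells and 26.0 in control cells. It read 113, 106 and 103 CPM in Bcat1-KO cells and 68.7, 80.1 and 76.3 CPM in control cells, a rise of 0.52 (SE 0.07, edgeR adjusted p = 6.98e-05). Camta1 overlaps Vamp3 on the same strand, so its value is uncertain. Vamp4 did not pass (0.13, edgeR adjusted p = 0.0814), although it did in limma-trend (adjusted p = 0.0268).

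All 10 SNAREs of the Golgi, endosomes and endoplasmic reticulum were expressed, and 3 rose, 3 fell and 4 did not pass. Thus 60% passed, against 62.3% of all genes. Snap29, used in fusion of autophagosomes with lysosomes, read 24.4, 20.6 and 21.7 CPM in Bcat1-KO cells and 11.3, 13.6 and 13.7 CPM in control cells, a rise of 0.78 (SE 0.11, edgeR adjusted p = 5.18e-05). Stx6, of the trans-Golgi network and endosomes, read 104, 107 and 112 CPM in Bcat1-KO cells and 153, 161 and 163 CPM in control cells, and fell by 0.57 (SE 0.06, edgeR adjusted p = 1.07e-05). These were the largest changes among the Golgi, endosome and ER SNAREs, and neither had overlapping groups. Stx12, of recycling endosomes, rose by 0.26 (edgeR adjusted p = 0.00395). Snap47 rose by 0.33 (edgeR adjusted p = 0.00806), a call lost without control replicate 1 (adjusted p = 0.0509) and relative to its neighbours (adjusted p = 0.104), and by 0.20 without knockout replicate 1.

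Stx17, the autophagosome syntaxin, fell by 0.27 (edgeR adjusted p = 0.0335), a call lost without any 1 control library (adjusted p of 0.0723 to 0.0762), in limma-trend (adjusted p = 0.140) and relative to its neighbours (-0.05, adjusted p = 0.696), and it fell by 0.18 without knockout replicate 1. Stx5a, of traffic between the endoplasmic reticulum and the Golgi, fell by 0.18 (edgeR adjusted p = 0.0192), a call lost without control replicate 2 (adjusted p = 0.0515) and in limma-trend (adjusted p = 0.0895). Relative to the local median Stx5a stood at -0.28 (edgeR adjusted p = 0.00164). Stx16 had the highest level per length in this role, at 31.1 CPM per kb in Bcat1-KO cells and 30.3 in control cells. Stx16 did not pass (0.04, edgeR adjusted p = 0.725). It stood at -0.33 relative to a local median of 0.37 (edgeR adjusted p = 0.00472). Stx18 likewise did not pass (0.14, edgeR adjusted p = 0.209) and stood at -0.29 relative to a local median of 0.44 (edgeR adjusted p = 0.0202). Stx7 and Stx8, of late endosomes, stood at -0.10 and -0.08 and did not pass.

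Of the 6 genes taken by their letters alone, Snap91 rose by 1.59 (SE 0.27, edgeR adjusted p = 0.000334) from 0.345 ± 0.0711 to 1.04 ± 0.103 CPM, and Snapc4 fell by 0.62 (SE 0.13, edgeR adjusted p = 0.00157). The changes of Snapc1 (0.35), Snapc5 (0.36) and Snapc3 (-0.27) passed the test, and that of Snapc2 (-0.19) did not. None of the Snapc1, Snapc3 and Snapc5 calls passed relative to the local median. The Snapc3 call was also lost without control replicate 2 or 3 (adjusted p = 0.0920 and 0.0774) and in limma-trend (adjusted p = 0.119), and that of Snapc5 without knockout replicate 2 or 3 or control replicate 1 or 2 (adjusted p of 0.0730 to 0.111). Snapc2 passed as lower with RLE scaling (adjusted p = 0.0455), upper quartile scaling (adjusted p = 0.0442) and no filter (adjusted p = 0.0464), and without knockout replicate 1 (adjusted p = 0.00978) or control replicate 1 (adjusted p = 0.0251).

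Too few reads for a test were found for 25 genes, none with a mean above 0.310 CPM in either group. No read was seen in any of the 6 libraries for Cplx3, Cplx4, Stx19, Syt8, Syt10 and Syt16, which allows a level of up to 0.0147 CPM. A further 14 had 1 to 20 reads over all libraries and 5 had more. A fit with no filter on low counts took in every gene with a read, so not the 6 genes without one. Of the 24503 genes in that fit 38.5% passed, well-expressed genes included. Among the low-count members in it, 2 passed as higher and 4 as lower. Sv2c, an SV2 form of the basal ganglia, had 1 read in Bcat1-KO cells and 18 in control cells, a ratio of 21.3 (exact 95% interval 3.36 to 888). Syt6 had 2 and 25 reads, a ratio of 14.8 (exact 95% interval 3.69 to 129), Syt12 had 4 and 27, and Vamp5 had 12 and 29. Syt14 had 28 reads in Bcat1-KO cells and 8 in control cells, with overlapping groups. Syt4 had 0, 6 and 3 reads in the knockout libraries and 0 in every control library, so the groups overlapped at 0; the summed 9 reads are at least 2.53-fold higher against 3 reads over the control group. Several genes known from nerve terminals thus had few reads in both groups: Snap25, Syn3, Sv2b, Rims1, Rims2, Pclo, Erc2 and Unc13c each had 33 reads or fewer over the 6 libraries.

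Strand mattered for several members. Of 54 genes with at least 100 reads on both strands together, 7 had more than 5% of them on the opposite strand, and Stx3, Unc13a and Snapc3 had more than 50%. Stx3, a plasma membrane syntaxin of polarised cells, had 0, 1 and 0 reads on its own strand in Bcat1-KO cells and 0, 1 and 1 in control cells, but 550, 652 and 625 reads on the opposite strand in Bcat1-KO cells and 464, 428 and 396 in control cells. Counted without strand it would be a well-expressed gene that rose by 0.27 (edgeR adjusted p = 0.0298), whereas on its own strand it was close to absent. No listed gene overlaps Stx3 on the opposite strand, and the source of those reads was not tested. Unc13a had 80.9% of its reads on the opposite strand, where it overlaps Colgalt1, and it passed as lower when strand was ignored (-0.39, edgeR adjusted p = 0.0161). Colgalt1 itself fell by 0.32 (edgeR adjusted p = 0.000801), and the source of the opposite-strand reads was not tested. Syn1, which overlaps Araf, rose by 1.19 on its own strand and by 0.74 without regard to strand.

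**Figure D4:**
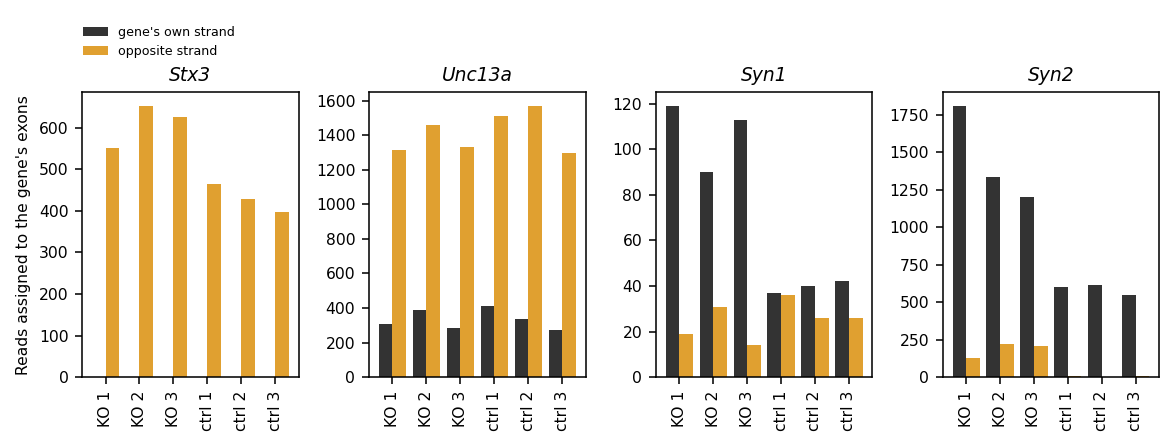
Reads in the exons of Stx3, Unc13a, Syn1 and Syn2 in each library, on the gene's own strand (black) and on the opposite strand (orange), on linear axes that start at 0 and differ between panels. Stx3 has at most 1 read on its own strand in any library, and Syn2 has 131 to 221 opposite-strand reads in the knockout libraries and 3 to 10 in the control libraries.

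The nearest tested genes to those that changed most moved in part with them and in part not. Untested genes between them were passed over, so that some lie far away. Beside Syt9, the next tested gene downstream, Ppfibp2 (liprin beta 2, a scaffold protein), rose by 3.36 on the log2 scale (edgeR adjusted p = 4.32e-08), from 0.707 ± 0.0788 to 7.28 ± 1.31 CPM. The tested genes upstream lie far from the Syt9 start at chr7:107370728. Of these, Mrpl17 (ending at chr7:105811099) rose by 0.32 and Dchs1 (ending at chr7:105787654) by 5.62. Eif3f, far beyond Ppfibp2 (starting at chr7:108934417), fell by 0.28. Whether these changes are linked was not tested. Beside Rims3, Nfyc fell by 0.30 and Exo5 stood at -0.08 and did not pass (edgeR adjusted p = 0.503). Beside Rims4, Ywhab stood at 0.19 and did not pass (edgeR adjusted p = 0.0649). Beside Cplx2, Sfxn1 fell by 0.29 and Thoc3 by 0.48, and beside Syt13, Prdm11 fell by 0.85 and Slc35c1 rose by 0.45. The local median of 51 tested genes, the member included, was 0.05 for Syt9, 0.03 for Rims3, -0.06 for Rims4, -0.34 for Cplx2 and 0.15 for Syt13.

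Other genes of the pathway were counted from lists. Over all genes tested, 32.0% were higher and 30.3% lower, 62.3% together. Of 22 tested genes of the general fusion machinery, 7 were higher and 2 lower (40.9% together), with a median of 0.09. Nsf, the ATPase that pulls used SNARE bundles apart, rose by 0.24 (edgeR adjusted p = 0.0453), Scfd2 rose by 0.99, and Napb and Use1 fell by 0.73 and 0.68. Of 20 tested genes for calcium triggering, priming and Rab3 or Rab27 effectors, 6 were higher and 8 lower (70% together), with a median of -0.54. Sytl4 (granuphilin), a Rab27 effector of dense core granules, read 4.38, 3.25 and 3.25 CPM in Bcat1-KO cells and had 3 reads over the control libraries, a ratio of 113 (exact 95% interval 38.4 to 550). Sytl3, a related Rab27 effector, fell by 5.63 (SE 0.18, edgeR adjusted p = 1.64e-10), from 14.5 ± 0.760 to 0.289 ± 0.0617 CPM. Dysf (dysferlin), a C2 domain protein of membrane repair, read 0.609, 0.754 and 0.935 CPM in Bcat1-KO cells and 48.8, 48.4 and 56.2 CPM in control cells, and fell by 6.05 (SE 0.14, edgeR adjusted p = 1.25e-11).

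Of 14 tested genes for further active zone scaffolds and presynaptic calcium channels, 8 were higher and 2 lower, with a median of 0.63. Together these are 71.4%, where 62.3% of all genes passed. Nrxn2, a presynaptic adhesion receptor, rose by 2.57 (SE 0.12, edgeR adjusted p = 4.94e-09), from 18.7 ± 1.497 to 111 ± 19.9 CPM, and the calcium channel subunits Cacna2d1 and Cacnb4 rose by 4.66 and 2.81. Of 13 tested genes for vesicle membrane proteins and transmitter loading, 6 were higher and 2 lower (61.5% together), with a median of 0.21. Syngr1 (synaptogyrin 1) and Syngr4 rose by 0.79 and 1.61, and Slc6a17, a vesicular amino acid transporter, fell by 1.79. The vesicular transmitter transporters were at the limit of detection, with 7 reads or fewer over the 3 libraries of either group for Slc17a6, Slc17a8, Slc18a1, Slc18a2, Slc18a3 and Slc32a1, while Slc17a7 had 13 reads in Bcat1-KO cells and 34 in control cells. Of 23 tested genes for vesicle endocytosis, 8 were higher and 4 lower (52.2% together), with a median of 0.05. Amph (amphiphysin) rose by 4.09 (SE 0.16, edgeR adjusted p = 1.13e-09), from 1.88 ± 0.168 to 32.0 ± 6.22 CPM, Sh3gl2 (endophilin A1) by 3.81 and Ap2s1, a clathrin adaptor subunit, by 2.24.

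Markers of other cell types moved in part with the groups. Of 9 tested neuron markers, 3 were higher and 3 lower (66.7% together, where 62.3% of all genes passed). Map2, Dcx and Elavl4 rose by 1.22, 1.97 and 1.62, while Rbfox3, Celf4 and Elavl3 fell by 8.77, 3.77 and 1.15. Summed over all 15, they ranged from 391 to 446 CPM in Bcat1-KO cells and from 211 to 229 CPM in control cells, mostly Map2, and Nefl, Nefm and Stmn2 had 0 counts. All 4 tested fibroblast and mural cell markers of 8 were lower, with a sum of 15.3 to 17.3 CPM in Bcat1-KO cells and 82.9 to 88.1 CPM in control cells. Oligodendrocyte markers summed to 54.2 to 64.2 CPM in Bcat1-KO cells and 43.1 to 44.6 CPM in control cells, with 1 of 3 tested higher and Mag and Mog at 0. Microglia markers (2.58 to 3.77 against 2.58 to 4.26 CPM, Itgam and Trem2 at 0) and endothelial markers (0.798 to 1.30 against 0.542 to 0.922 CPM, Cldn5 at 0) were near absent, with 0 of 1 and 0 of 2 tested past the threshold in edgeR. Of 9 tested glioblastoma stem cell markers, 7 were higher and none lower (77.8%, where 32.0% of all genes were higher). All 10 summed to 2213 to 2418 CPM in Bcat1-KO cells and 1491 to 1555 CPM in control cells. Their part in the vesicle gene results was not tested.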

How the data were processed

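RNA libraries of 3 Bcat1-KO and 3 control samples of mGB2 were made with a stranded mRNA kit, per the labels' protocols. The submitters' processing notes name the aligner STAR 2.5.3a, featureCounts and the build mm10, and which annotation release was counted is not given here. The deposited counts are raw reads per gene, given per strand, and those on the reverse strand (96.4% to 96.5%) were used. The authors' deposited TPM values served for the limma-trend alternative as log2(TPM + 1), which understates the change of low genes.

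Counts were filtered with edgeR 4.0.16's expression filter, scaled by TMM and tested over 14020 genes by its quasi-likelihood method with no covariate, at a Benjamini-Hochberg adjusted p of 0.05. Alternatives were RLE and upper quartile scaling, no filter, DESeq2 1.42.0, limma 3.58.1, unstranded counts, a test against a 1.5-fold change, a replicate block, removal of the local median of 51 genes, and leaving out each library. The local median entered as a fixed value, so that its own error is not part of those p-values. Its window of 51 tested genes held the gene itself. The script was tested on simulated counts in which far fewer genes changed than here, so that error rates in these data were not checked. No library was a duplicate of another in its group. Intervals cover counting error only. R 4.3.3 and Python 3.11.15 were used.

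Members and lists were chosen with earlier results of these data known. Up to 4 genes per role with the largest change past the threshold and a mean log2 CPM of at least 0 were named in full, with the most abundant gene per length of each role and well-known neuronal members. Of each other list, up to 3 genes were named; Nsf and the genes beside members were named after their values were seen, as were the low-count genes. Some genes that the rules take are not reported here.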

Additional observations from a re-analysis of the deposited data

Results flagged for a closer look

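Reads on the strand opposite to Syn2 are left out of the strand-matched test, and they were not tested by themselves. They lay above the control level and came to 5.02 CPM on average in Bcat1-KO cells, against 0.205 CPM in control cells, with 131, 221 and 207 reads in the knockout libraries and 10, 3 and 6 in the control libraries. Timp4, an inhibitor of matrix metalloproteinases, overlaps Syn2 on that strand. Timp4 read 162, 148 and 152 CPM in Bcat1-KO cells and 4.197, 4.61 and 3.92 CPM in control cells, a rise of 5.18 on the log2 scale (edgeR adjusted p = 3.69e-12). Syn2 reads on its own strand numbered 1809, 1333 and 1203 in Bcat1-KO cells and 602, 614 and 547 in control cells.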

How the results depend on the processing

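The counts of 22 higher and 18 lower members stayed within 1.5 times of those values under other scalings, no filter, DESeq2, limma-trend, unstranded counts, the local median, without the 6 genes taken by their letters (an alternative added after the data were seen) and without any library (17 to 21 higher, 15 to 19 lower). The test against a 1.5-fold change left 9 higher and 6 lower. Of 40 called members, 26 passed in every other alternative. The median of 0.05 moved to -0.00745 in DESeq2 and 0.0859 in limma-trend, and to between -0.0501 and 0.105 without a library. The values of Stx16 (0.04) and Stx18 (0.14) reversed to -0.33 and -0.29 with the local median removed. The medians subtracted were 0.37 and 0.44, and neither gene passed in the main test. No pairing by replicate number was seen, as same-numbered libraries correlated at -0.07 to 0.16 and 1 of 3 correlated best with its own number. With 3 libraries a group this check cannot exclude pairing. With a replicate block 22 members were higher and 18 lower, with a median of 0.04. Levels under about 0.1 CPM rest on 3 reads or fewer a library.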

Other observations

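Further lists beside the exocytosis genes gave these values. Of 6 tested genes for dense core vesicle cargo and processing, 3 were higher and 3 lower, where 62.3% of all genes passed. Bdnf, a neurotrophin packed into dense core vesicles, read 5.32, 7.67 and 9.33 CPM in Bcat1-KO cells and 0.191, 0.0603 and 0.0344 CPM in control cells, a rise of 6.22 on the log2 scale (SE 0.39, edgeR adjusted p = 6.11e-08). Cpe (carboxypeptidase E), which trims prohormones, read 52.6, 52.0 and 50.95 CPM in Bcat1-KO cells and 118, 134 and 126 CPM in control cells, and fell by 1.28 (SE 0.07, edgeR adjusted p = 1.31e-08). The granin cargo genes Chga, Chgb, Scg2 and Scg3 had 33 reads or fewer in either group and were not tested. Scg2 had 4 reads in Bcat1-KO cells and 33 in control cells, and Scg3 had 11 and 1. Vgf, of the same list, had 42 reads in Bcat1-KO cells and 119 in control cells. It fell by 1.74 (SE 0.31, edgeR adjusted p = 0.000464). The 9 exocyst genes encode the tether of vesicles at the plasma membrane. Of these, 3 were higher and 1 lower (44.4% together), and Exoc6b rose by 0.81 (SE 0.08, edgeR adjusted p = 3.13e-06).

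The repressor REST and its cofactors, which silence neuronal genes outside neurons, were also counted. Of 12 tested, 3 were higher and 2 lower (41.7% together, where 62.3% of all genes passed), with a median of 0.14. Rest itself stood at 59.0 ± 1.32 CPM in Bcat1-KO cells and 63.8 ± 5.09 CPM in control cells (n = 3 each) and did not pass the test (-0.11, edgeR adjusted p = 0.192). Rcor1, a cofactor, fell by 0.69 (SE 0.07, edgeR adjusted p = 4.31e-06), from 138 ± 2.11 to 85.2 ± 6.55 CPM, and Rcor2, its relative, rose by 0.27 (edgeR adjusted p = 0.00765).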
